A study of Arvicanthis niloticus with 59 samples.

Results

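The comparison set the spinal cord library of animal T3F against the medulla oblongata library of the same animal. These are 2 of the 59 RNA-seq libraries in a survey of 22 organs from 4 Nile grass rats (Arvicanthis niloticus, a rodent active by day), and 38 of them came from T3F. Both were chosen by their labels alone, which name the cord sample proximal spinal cord and file both tissues under brain. The tissue is labelled healthy and untreated, and the labels give no age, no genotype and no spinal segment. With 1 library a side there was no replicate, so no test was made and every comparison is a description by size. The pons library of T3F, from the neighbouring stretch of brainstem, and 6 other libraries of that animal (caudal cortex, rostral cortex, hippocampus, thalamus with hypothalamus, midbrain and cerebellum) show where else in the brain a gene was found. The labels file the midbrain library under eye.

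The medulla oblongata continues into the spinal cord without a sharp border. Neurons along this axis keep a position code of Hox transcription factors, which lie in clusters named A to D and are numbered by paralogue group, and genes of higher number are generally used further toward the tail. The dorsal horn of the cord, and the trigeminal nucleus that continues it into the medulla, receive touch, itch, heat and pain signals. The medulla also holds cell groups that the cord lacks, among them the inferior olive, which sends climbing fibres to the cerebellum, and the raphe nuclei, whose serotonin neurons send axons down the cord. The cord has its own motor neurons and a larger proportion of long myelinated tracts.

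The spinal cord library held 17570825 expected counts and the medulla library 17710116, within the range of 12693819 to 22095366 over the 9 brain and cord libraries of T3F. Levels are given in TPM, which corrects for gene length and library total. At 1 TPM or more, 14725 genes were found in spinal cord and 14780 in medulla. Mitochondrial genes took 18.7% of TPM in spinal cord and 16.4% in medulla. Of 16 listed genes of forebrain neurons and their factors, 4 were measured. In bulk tissue, fewer cells of a type and less RNA per cell cannot be told apart. The intervals given for single genes are exact 95% intervals of the ratio of counts per library total. They cover counting error only, not differences between animals or pieces of tissue.

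Most genes stood at like levels at both sites. Differences are given as log2(TPM + 1) in spinal cord minus that in medulla, and a gene was counted as higher or lower where this difference was at least 1 in size, which is 2-fold on that scale. Of 14861 genes with a mean of at least 1 TPM over both libraries, called measured here, 264 were higher in spinal cord (1.78%) and 376 lower (2.53%), 4.31% in all, and the median difference was -0.0049. These shares are the background for the counts of list members given below. For scale, 545 of 14851 genes (3.67%) passed the same fold between pons and medulla, and 263 of 14614 (1.8%) between the left and right retina of T3F. Higher genes made up 41.2% of the calls on TPM. They made up 31.1% on counts scaled with edgeR's TMM factors (97 higher, 215 lower) and 30.8% with DESeq2 size factors (97 and 218). Both settings put counts per library total, without correction for gene length, in place of TPM, and kept 14054 and 14053 genes. The TMM factors were 0.991 in spinal cord and 1.009 in medulla, and the DESeq2 factors 0.990 and 1.011. The unit thus changed along with the factors, and the part of each was not tested.

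Many calls rested on few reads. Of the 15 genes with the largest difference in favour of spinal cord and at least 10 TPM there, 12 had under 50 counts in the cord and 11 were listed at 0 in medulla. In the other direction 7 of the 15 had under 50 counts in medulla and 6 were listed at 0 in spinal cord. A minimum of 50 counts in the higher library, added after the values were seen, left 12920 genes, with 83 higher in spinal cord (0.642%) and 192 lower (1.49%), 2.13% in all. Under the same minimum 83 of 13332 genes (0.623%) differed between the 2 retinas. On TMM-scaled counts, 60 of 72 genes that are named in the text and past the fold stayed past it. The exceptions were Hoxa6, Skor2, Nmb, Ucn, Gad2, Htr1a, Fev, Pnmt, Pou4f1, Camp, Fosb and Galr1. Among the 20 largest differences with 50 counts or more in each direction, 5 of the higher genes were Hox genes and 2 were neuropeptide genes. Of the lower genes 6 were on the choroid plexus list and 2 on the neuropeptide list.

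**Figure D1:**
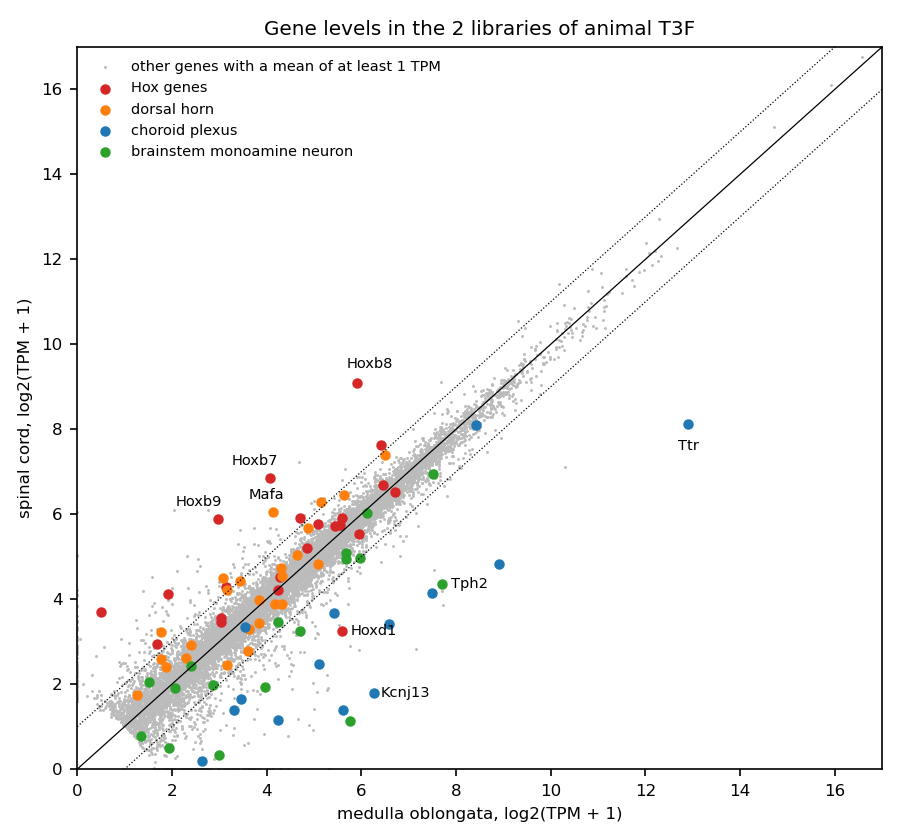
Each point is a gene with a mean of at least 1 TPM, plotted at its log2(TPM + 1) in medulla oblongata (x axis) and in spinal cord (y axis), with 4 gene lists coloured, the line of equal level solid and the 2-fold lines dotted. Hoxb8, Hoxb7 and Hoxb9 stand above the 2-fold lines, and Ttr, Kcnj13 and Tph2 stand below them.

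Hox genes of the cord and medulla differed by their place in the code. Among 37 Hox genes listed, 22 were measured, and of these 9 were higher in spinal cord, 1 was lower and 12 lay within 2-fold. Their median difference was 0.47, against -0.0049 over all measured genes. Summed over the family, Hox genes stood at 1594 TPM in spinal cord, 754 TPM in medulla and 109.5 TPM in pons. At 1 TPM or more, 23 of the 37 were found in spinal cord, 22 in medulla and 16 in pons.

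Hoxb8, of paralogue group 8, stood at 546 TPM in spinal cord, 58.7 TPM in medulla and 1.33 TPM in pons. The count ratio of cord to medulla was 9.20 (interval 8.06 to 10.5), and elsewhere in the brain the gene ranged from 0.639 to 2.38 TPM. Hoxb8 was thus high in the cord, intermediate in medulla and near the floor in every other brain library. Its cluster neighbour Hoxb7 followed the same order, with 115 TPM in spinal cord, 15.8 TPM in medulla and 0.178 TPM in pons. Hoxb9 stood at 58.4 TPM in spinal cord and 6.87 TPM in medulla, and was listed at 0 in pons and in the 6 other brain libraries. Hoxb6 stood at 16.4 TPM in spinal cord, 2.80 TPM in medulla and 0.105 TPM in pons. These 4 genes lie next to one another in the B cluster.

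Cluster D held the steepest ratio and the only lower gene. Hoxd8 stood at 11.9 TPM in spinal cord (220 counts) and 0.423 TPM in medulla (8 counts), a count ratio of 27.7 (interval 13.8 to 65.0), and was listed at 0 in pons. Hoxd4 was 58.9 TPM in spinal cord and 25.1 TPM in medulla. Hoxd1, at the group 1 end of the cluster, ran the other way, with 8.51 TPM in spinal cord, 46.9 TPM in medulla and 1.78 TPM in pons. That value rests on 13 counts in the cord and 73 in medulla, a ratio of 5.57 in favour of medulla (interval 3.06 to 10.96).

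The remaining higher members came from clusters A and C. Hoxa5 was the second most abundant Hox gene of the cord, at 198 TPM in spinal cord, 84.7 TPM in medulla and 2.97 TPM in pons. Hoxa6 was 18.7 TPM in spinal cord and 7.81 TPM in medulla, but on 26 and 11 counts. Hoxc6 was 6.70 TPM in spinal cord and 2.22 TPM in medulla. TPM and counts rank these genes differently: 1155 cord counts of Hoxb6 gave a lower TPM than 26 cord counts of Hoxa6. In the RefSeq annotation of this species the span of Hoxa3 overlaps those of Hoxa4, Hoxa5 and Hoxa6, and that of Hoxb5 overlaps Hoxb6. How reads in shared stretches were divided is not given in the sources used here.

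By paralogue group the differences were uneven. In groups 1 to 5, 14 of 15 genes were measured, with 2 higher, 1 lower and a median difference of 0.27. Hoxc4 (91.4 TPM in spinal cord, 104 TPM in medulla) and Hoxa4 (102 and 87.4 TPM) were abundant at both sites and within 2-fold. In groups 6 to 8, 7 of 8 were measured and 6 of them were higher, with a median difference of 2.20, and the exception Hoxa7 stood at 53.6 TPM in spinal cord and 33.0 TPM in medulla. Group 9 had a single measured member, Hoxb9, of 4. None of the 10 genes of groups 10 to 13 was measured, and the highest of them in the cord was Hoxc10 at 1.503 TPM. These groups include the code of lumbar and sacral levels. Cluster C had little signal past group 6: Hoxc8 stood at 0.452 TPM in spinal cord and was listed at 0 in medulla, and Hoxc9 was listed at 0 in both. In the sciatic nerve of the same animal Hoxc8 was 11.3 TPM and Hoxc9 28.7 TPM, so both genes could be found with these tables.

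**Figure D2:**
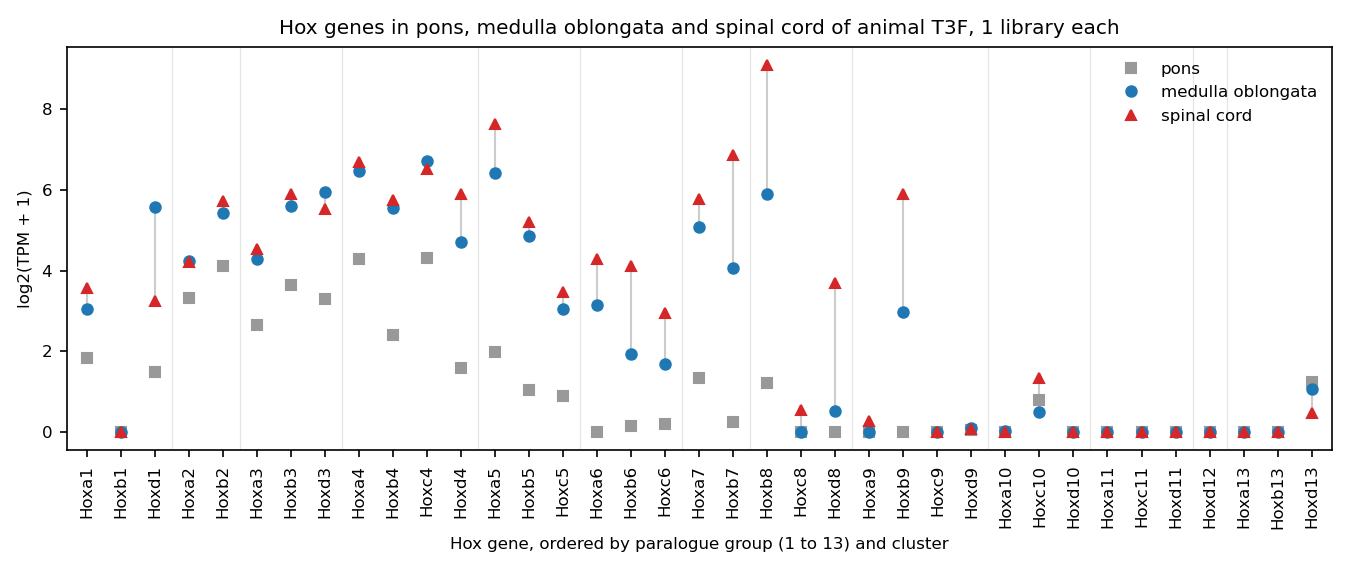
The 37 Hox genes of the table in paralogue order on the x axis, with log2(TPM + 1) on the y axis, for pons (squares), medulla oblongata (circles) and spinal cord (triangles), 1 library each. Up to group 5 cord and medulla are past 2-fold apart only at Hoxd1, Hoxd4 and Hoxa5, and in groups 6 to 9 they are so at Hoxa6, Hoxb6, Hoxc6, Hoxb7, Hoxb8, Hoxd8 and Hoxb9, while pons is low from group 6 on.

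Genes of the dorsal horn leaned toward the cord. Of 25 measured members of this list of sensory interneuron factors and receptors, 5 were higher in spinal cord and 0 lower, and 18 of 25 had a difference above 0. The median difference was 0.47, and over all measured genes 1.78% were higher and 2.53% lower. Mafa, a transcription factor of touch-related interneurons, stood at 65.7 TPM in spinal cord, 16.4 TPM in medulla and 12.6 TPM in pons, with a count ratio of 3.96 (interval 2.64 to 6.13). Tlx3, which selects the glutamate fate in dorsal interneurons, was 8.40 TPM in spinal cord, 2.39 TPM in medulla and 0.600 TPM in pons. Prrxl1, needed for the wiring of pain circuits, was 77.02 TPM in spinal cord, 34.4 TPM in medulla and 9.71 TPM in pons. Skor2, a transcriptional corepressor, was 17.5 TPM in spinal cord and 7.997 TPM in medulla, on 30 and 14 counts. Each of these 4 factors stood lowest in pons among the 3 sites.

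The members under the fold included the main selector genes of this region. Lbx1, which specifies dorsal association neurons, was 50.2 TPM in spinal cord and 28.2 TPM in medulla. Gbx1, a factor of inhibitory dorsal horn neurons, was 86.4 TPM in spinal cord, 48.7 TPM in medulla and listed at 0 in pons. Lmx1b, which acts with Tlx3 in glutamate neurons and also in serotonin neurons, was 20.7 TPM in spinal cord and 9.90 TPM in medulla, a difference of 0.99 that fell just short of the fold. Pax2, of inhibitory interneurons, was 22.3 TPM in spinal cord and 19.0 TPM in medulla. Tshz2, a zinc finger factor gene, was 166 TPM in spinal cord, 89.0 TPM in medulla and 35.8 TPM in pons, and Pax8 was 2.34 and 1.41 TPM. Receptors were mixed. Grpr, the receptor of the itch pathway, was 4.31 TPM in spinal cord and 2.69 TPM in medulla, and the substance P receptor Tacr1 was 9.81 and 13.4 TPM. Among opioid receptor genes the kappa receptor Oprk1 was 25.8 TPM in spinal cord and 18.7 TPM in medulla, and the mu receptor Oprm1 was 13.7 and 19.0 TPM. The 7 members with values below those of medulla included Zfhx3, a factor of projection neurons, at 5.86 and 11.2 TPM, and the neuropeptide Y receptor Npy2r, at 4.46 and 8.02 TPM.

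Neuropeptide genes differed in both directions. Of 31 measured, 5 were higher in spinal cord, 5 lower and 21 within 2-fold, with a median difference of -0.31. Tac2, which encodes neurokinin B, stood at 149 TPM in spinal cord, 24.8 TPM in medulla and 13.8 TPM in pons, a count ratio of 5.92 (interval 4.74 to 7.46). Nmu, which encodes neuromedin U, stood at 91.3 TPM in spinal cord, 15.2 TPM in medulla and 0.773 TPM in pons. Its receptor gene Nmur2, a member of the dorsal horn list, was higher in the cord too, at 21.7 TPM against 7.44 TPM in medulla. Nmu rests on 107 and 18 counts and Nmur2 on 117 and 41. Pdyn, the dynorphin precursor, was 76.4 TPM in spinal cord and 29.6 TPM in medulla. Tac1, the substance P precursor, was 55.2 TPM in spinal cord and 26.6 TPM in medulla, a difference of 1.03. Ucn3, which encodes urocortin 3, was 6.36 TPM in spinal cord (52 counts) and 0.480 TPM in medulla (4 counts).

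On the medullary side, Crh, the gene of corticotropin-releasing hormone, stood at 6.15 TPM in spinal cord, 141 TPM in medulla and 18.1 TPM in pons. Its count ratio was 23.3 in favour of medulla (interval 15.7 to 35.9), and no other brain library of T3F exceeded 23.8 TPM. Trh, the gene of thyrotropin-releasing hormone, stood at 136 TPM in spinal cord, 1262 TPM in medulla and 12.2 TPM in pons. The medulla held the highest Trh level of the 9 libraries, ahead of thalamus with hypothalamus at 322 TPM. Cartpt, the gene of the CART peptide, was 37.3 TPM in spinal cord and 100.3 TPM in medulla. The other 2 lower genes were Nmb, at 3.79 and 8.75 TPM, and Ucn, which had only 2 counts in the cord and 10 in medulla. Other abundant peptide genes of this list lay within 2-fold. Sst (somatostatin) was 1345 TPM in spinal cord and 704 TPM in medulla, and Penk (proenkephalin) was 1457 and 1126 TPM. The cord held the highest Sst level of the 9 libraries. Cck (cholecystokinin) was 52.6 TPM in spinal cord and 26.0 TPM in medulla, a difference of 0.99 that missed the fold, and Nts (neurotensin) was 127 and 77.8 TPM. Calca, which encodes CGRP and calcitonin, had the opposite sign, at 21.4 TPM in spinal cord and 40.5 TPM in medulla, as did Gal (galanin), at 32.5 and 60.1 TPM.

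Most fast transmitter genes lay close to the line of equal level. Of 14 measured 12 lay within 2-fold, 0 were higher and 2 lower in spinal cord, and the median difference was -0.12. Slc17a7, the vesicular glutamate transporter typical of cortex and cerebellum, stood at 1.68 TPM in spinal cord, 31.1 TPM in medulla and 87.7 TPM in pons. Its count ratio was 18.9 in favour of medulla (interval 13.8 to 26.7). Slc17a6, the main glutamate transporter of brainstem and cord, was 202 TPM in spinal cord and 256 TPM in medulla. Of the 2 enzymes that make GABA, Gad2 was 68.6 TPM in spinal cord and 138 TPM in medulla, at the edge of the fold, while Gad1 was 137 and 101 TPM. The glycine transporter Slc6a5 was 129.6 TPM in spinal cord and 189.5 TPM in medulla, and at most 15.8 TPM in the 6 other brain libraries. Pons stood at 166 TPM, so high Slc6a5 was shared by the 3 hindmost sites. Slc32a1, which loads both GABA and glycine into vesicles, was 95.6 TPM in spinal cord and 103 TPM in medulla. The adult glycine receptor subunit Glra1 was 119.2 TPM in spinal cord, 203 TPM in medulla and 149 TPM in pons.

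The cholinergic and motor neuron genes that passed the fold were all lower in the cord. Of 17 measured, 0 were higher and 4 lower in spinal cord, and the median difference was -0.41. Chat, which makes acetylcholine, stood at 14.01 TPM in spinal cord, 37.2 TPM in medulla and 26.1 TPM in pons. Slc5a7, which takes up choline, stood at 43.5 TPM in spinal cord, 123 TPM in medulla and 78.0 TPM in pons. Both were thus lowest in the cord of the 3 sites. The other 2 were Prph, a filament protein of neurons with peripheral axons (85.5 TPM in spinal cord, 225 TPM in medulla), and Calcb, a CGRP gene (40.6 and 116 TPM). Measured transcription factors of motor neurons lay within 2-fold on the log2(TPM + 1) scale, with values of either sign. Mnx1 stood at 7.95 TPM in spinal cord and 4.23 TPM in medulla, on 35 and 19 counts. Isl1 was 1.30 TPM in spinal cord and 2.89 TPM in medulla, on 26 and 59 counts. Its count ratio was 2.25 in favour of medulla (interval 1.40 to 3.72), but the added 1 TPM shrinks differences at such levels. Lhx4 was 1.11 and 1.66 TPM, and Lhx3 was 1.24 and 1.06 TPM. Chodl, a gene of fast motor neurons, was 119.5 TPM in spinal cord and 77.2 TPM in medulla. General neuron genes were also slightly lower: 13 of 14 had a difference below 0 and none passed the fold, with a median of -0.34. Elavl4, a neuronal RNA-binding protein gene, had the largest of these, at 28.2 TPM in spinal cord and 56.5 TPM in medulla. The part of that general shift in the transmitter and cholinergic values was not tested.

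Many markers of aminergic cell groups were higher in medulla. Of 17 measured members, 0 were higher and 7 lower in spinal cord, and 2 had a difference above 0, with a median of -0.77. One of these 2 was Th, which makes the precursor of dopamine and noradrenaline, at 3.14 TPM in spinal cord and 1.87 TPM in medulla. Tph2, the enzyme that starts serotonin synthesis in neurons, stood at 19.4 TPM in spinal cord, 206 TPM in medulla and 331 TPM in pons. Slc6a4, the serotonin transporter, stood at 0.260 TPM in spinal cord, 6.93 TPM in medulla and 12.2 TPM in pons. Fev, the transcription factor of serotonin neurons, was 2.84 TPM in spinal cord and 14.7 TPM in medulla, on 4 and 21 counts. Among cord, medulla and pons, all 3 serotonin genes were highest in pons and lowest in the cord. The vesicular monoamine transporter Slc18a2 was 8.46 TPM in spinal cord and 25.2 TPM in medulla. Lower too were the serotonin receptor Htr1a, at the edge of the fold with 30.3 and 61.7 TPM, and Pnmt, which makes adrenaline, with 1 and 7 counts.

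Genes of other medullary nuclei went the same way. Of 21 measured, 0 were higher and 9 lower in spinal cord, and the median difference was -0.90. The listed genes were not particular to medulla: they summed to 587 TPM there and to as much as 2396 TPM in another brain library. Htr5b, a serotonin receptor gene of the inferior olive, stood at 24.9 TPM in spinal cord, 186 TPM in medulla and 4.78 TPM in pons. The medulla level was the highest of the 9 libraries, the next being hippocampus at 47.0 TPM. Foxp2, a transcription factor of the olive and of Purkinje cells, was 2.38 TPM in spinal cord and 13.5 TPM in medulla. It was higher than in medulla in midbrain (43.7 TPM), thalamus with hypothalamus (29.6 TPM) and rostral cortex (28.4 TPM). C1ql1, the secreted protein that olive neurons release at climbing fibre synapses, was entered on the list of oligodendrocyte precursors, cells that express it too. It stood at 31.4 TPM in spinal cord, 113 TPM in medulla and 32.8 TPM in pons, and was the only one of 11 members of that list to pass the fold. Pou4f1, a factor of olive and sensory neurons, was 3.64 TPM in spinal cord and 37.9 TPM in medulla, on 2 and 21 counts. Tbx20, a factor of cranial motor neurons, was 0.947 TPM in spinal cord and 8.96 TPM in medulla, on 3 and 29 counts, and 8.63 TPM in pons.

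**Figure D3:**
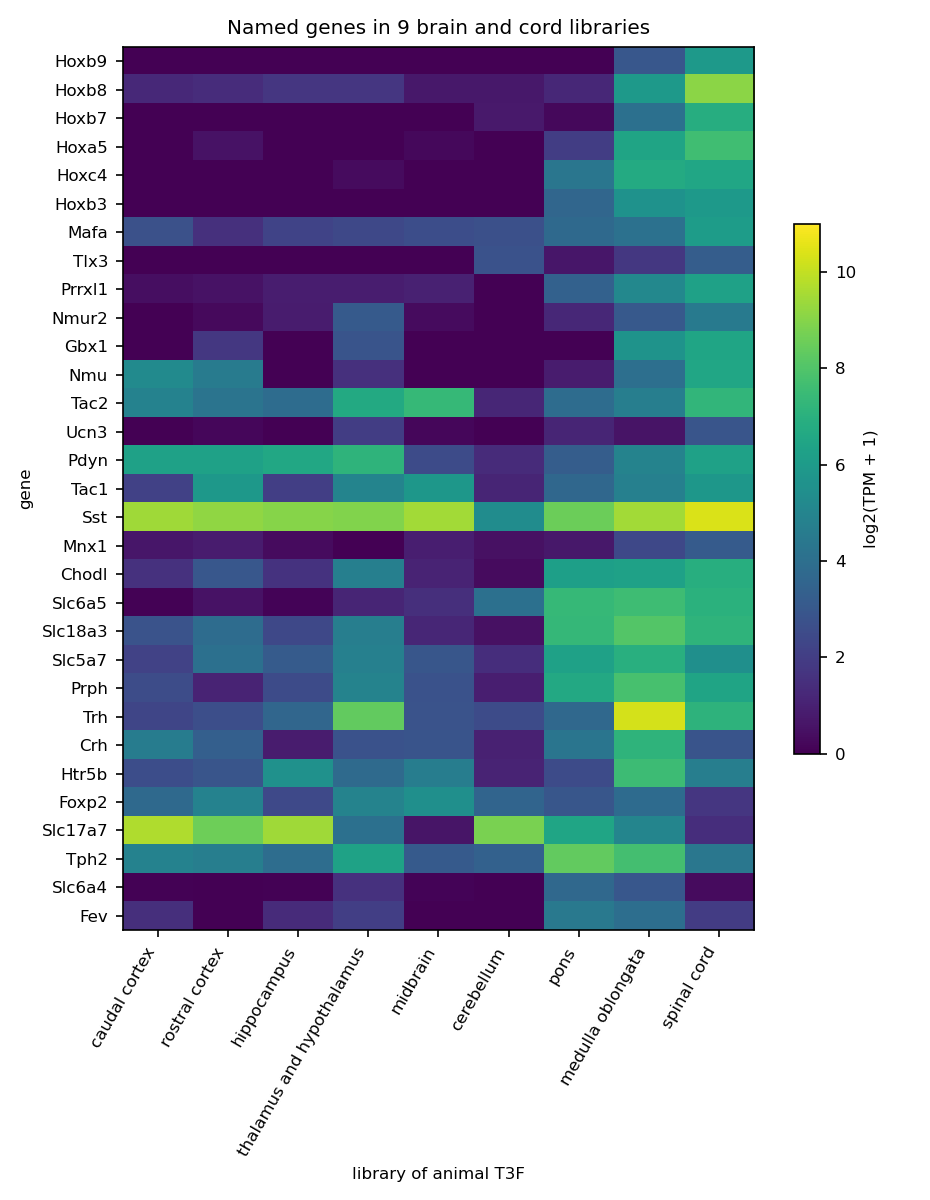
Colour gives log2(TPM + 1) of named genes (rows) in the 9 brain and cord libraries of T3F (columns), 1 library each. Hox genes are dark or nearly so in all columns but the hindmost 3, and Hoxb9, Hoxb8 and Hoxb7 are so in pons too. The peptides Nmu, Tac2 and Pdyn are bright in spinal cord and also in forebrain libraries, and Trh, Crh and Htr5b are brightest in medulla oblongata.

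The list with the lowest median was not of neurons. All 14 choroid plexus genes were measured, and 12 were lower in spinal cord, 0 higher, with a median difference of -2.86. The choroid plexus is the epithelium that makes cerebrospinal fluid inside the brain's ventricles. Ttr, which encodes the thyroid hormone carrier transthyretin, stood at 276 TPM in spinal cord, 7643 TPM in medulla and 57.6 TPM in pons. Kcnj13, a potassium channel gene of that epithelium, was 2.48 TPM in spinal cord, 75.7 TPM in medulla and 1.40 TPM in pons. Kcne2, a channel subunit gene, was 1.61 TPM in spinal cord and 47.7 TPM in medulla. The medulla library was the one that stood apart: its median over the list was 5.52 on the log2(TPM + 1) scale, the highest of the 9 libraries, against 4.19 in cerebellum, 2.90 in spinal cord and 2.15 in pons. None of the listed genes was at 0 in spinal cord, and the list summed to 636 TPM there and 8988 TPM in medulla. Otx2, a forebrain factor that the choroid plexus also uses, was the only one of 4 measured forebrain genes past the fold (0.140 TPM in spinal cord, 5.19 TPM in medulla). The part of choroid plexus in other genes that were lower in spinal cord was not tested.

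Meningeal and fibroblast genes were lower in the cord as well. Of 20 measured, 13 were lower, 0 higher, and the median difference was -1.09. Ogn, an extracellular matrix gene, stood at 6.01 TPM in spinal cord, 61.1 TPM in medulla and 24.4 TPM in pons. Slc13a4, a sulfate transporter gene of the meninges, was 0.732 TPM in spinal cord and 8.74 TPM in medulla. Here the cord library was the lowest of 9, with a list median of 2.39 on the log2(TPM + 1) scale against 4.32 in medulla and 3.50 in pons. Hippocampus was next lowest at 3.04, and midbrain was highest at 5.655. Schwann cell genes, which mark nerve roots, gave 5 lower and 0 higher of 14 measured, with a median of -0.32. Prx, which encodes periaxin of peripheral myelin, was 1.57 TPM in spinal cord, 5.95 TPM in medulla and 2.04 TPM in pons. Sostdc1, on both the Schwann cell and the choroid plexus list, was 27.3 TPM in spinal cord and 476 TPM in medulla. Of 9 measured sensory ganglion genes 1 was higher and 4 were lower, and 4 had a difference above 0. The higher gene was Scn10a, at 3.50 TPM in spinal cord and 0.932 TPM in medulla, on 21 and 6 counts. Prph and Pou4f1 were among the lower genes, and both were on other lists too. The part of nerve roots in the values of Prph and Calcb was not tested.

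**Figure D4:**
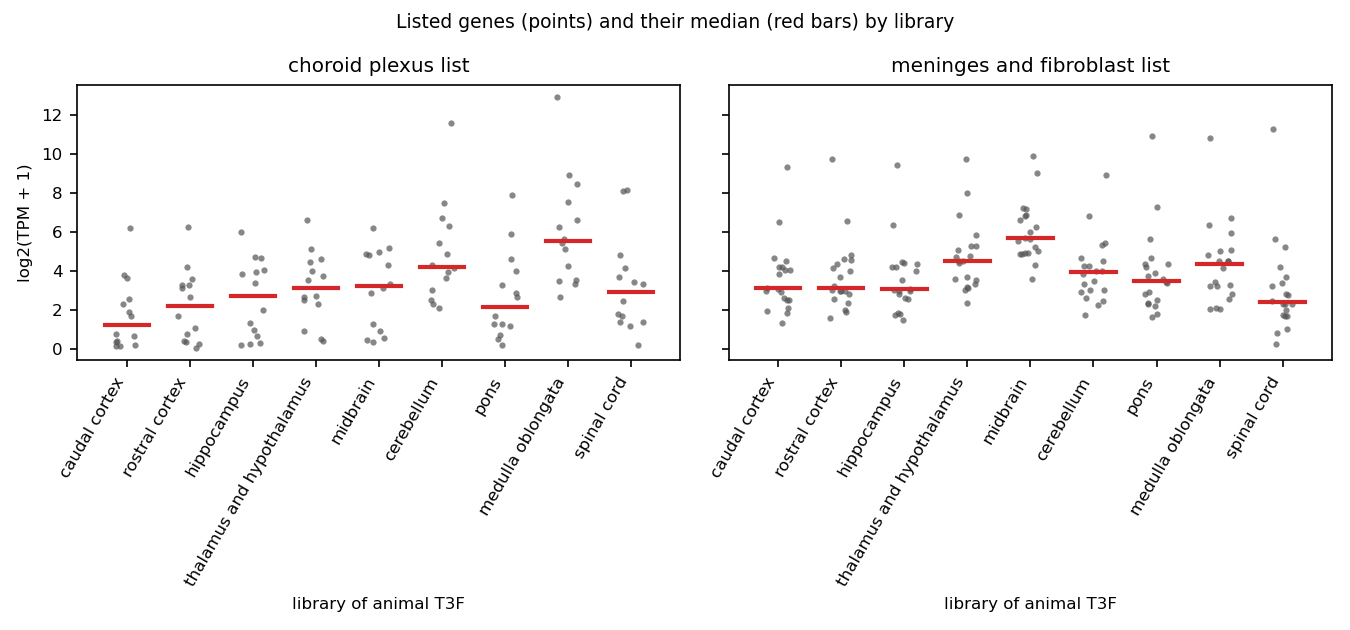
Each point is a listed gene at its log2(TPM + 1) (y axis) in the 9 brain and cord libraries of T3F (x axis), for the choroid plexus list (left) and the meninges and fibroblast list (right), with medians as red bars. The choroid plexus median is highest in medulla oblongata, at 5.52, and the meningeal median is lowest in spinal cord, at 2.39.

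Myelin genes had slightly higher values in the cord. Of 29 measured, 28 had a difference above 0, none passed the fold in either direction, and the median was 0.30. Mbp, which encodes myelin basic protein, stood at 3478 TPM in spinal cord, 1881 TPM in medulla and 2048 TPM in pons, and at most 796 TPM in the 6 other libraries. Mobp, another myelin protein gene, was 7881 TPM in spinal cord, 4995 TPM in medulla and 5316 TPM in pons. Klk6, a protease gene of oligodendrocytes, was 332 TPM in spinal cord and 186 TPM in medulla. These 3 were highest in the cord of all 9 libraries. Cnp, a myelin enzyme gene on the same list, was listed at 0 in every one of these libraries, although oligodendrocytes everywhere express it. A value of 0 in these tables can therefore stand for a gene that was not quantified.

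Astrocyte and microglia genes lay within 2-fold on the log2(TPM + 1) scale as well. Over all measured genes 4.31% passed the fold, and a list this short can hold none at that share. None of 23 astrocyte genes passed the fold, with a median of 0.084, and Gfap, the astrocyte filament gene, was 588 TPM in spinal cord and 444 TPM in medulla. None of 21 microglia and border macrophage genes passed it either, and their median was 0.38. Within that list Cx3cr1 of microglia was 85.4 TPM in spinal cord and 62.7 TPM in medulla, while Mrc1 and Cd163 of border macrophages had lower values in the cord, at 1.85 against 3.77 TPM and 0.525 against 1.59 TPM. Their count ratios in favour of medulla were 2.07 (interval 1.455 to 2.97) for Mrc1 and 3.07 (interval 1.85 to 5.29) for Cd163. At such low levels the added 1 TPM shrinks the difference, so both stayed under the fold. All 18 genes of endothelium and mural cells lay within 2-fold. Among 15 ependymal and central canal genes Pkd1l2, which encodes a channel-like protein, was higher at 2.28 TPM in spinal cord and 0.157 TPM in medulla, on 57 and 4 counts. The other 14 lay within 2-fold, among them Pkd2l1 at 3.94 and 3.38 TPM, and the list median was -0.17.

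Genes of axons and their cytoskeleton had a median difference of -0.39, with 0 higher and 2 lower of 26 measured. Besides Prph, the lower gene was Map1b, a microtubule-associated protein of growing axons, at 174 TPM in spinal cord, 400.4 TPM in medulla and 478 TPM in pons. The neurofilament gene Nefl was 4902 TPM in spinal cord and 6516 TPM in medulla, within the fold. Myelin genes thus had slightly higher values in the cord and neurofilament genes slightly lower ones.

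Red cell and marrow genes gave 3 higher and 0 lower of 9 measured. Hbb-bs and Hba-a2, the haemoglobin chains, stood at 2751 and 1491 TPM in spinal cord and at 1162 and 634 TPM in medulla. Over the 6 other brain libraries Hbb-bs ranged from 657 to 2340 TPM. Camp, the third, had 16 and 5 counts. None of 7 skeletal muscle, 6 bone and cartilage and 12 cerebellar neuron genes passed the fold, against 4.31% over all measured genes. Lists this short can hold none at that share. Of 16 immediate early genes, which neurons switch on within minutes of activity or handling, Egr3 was higher (8.07 TPM in spinal cord, 2.47 TPM in medulla) and Fosb lower (1.26 and 4.2 TPM).

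**Figure D5:**
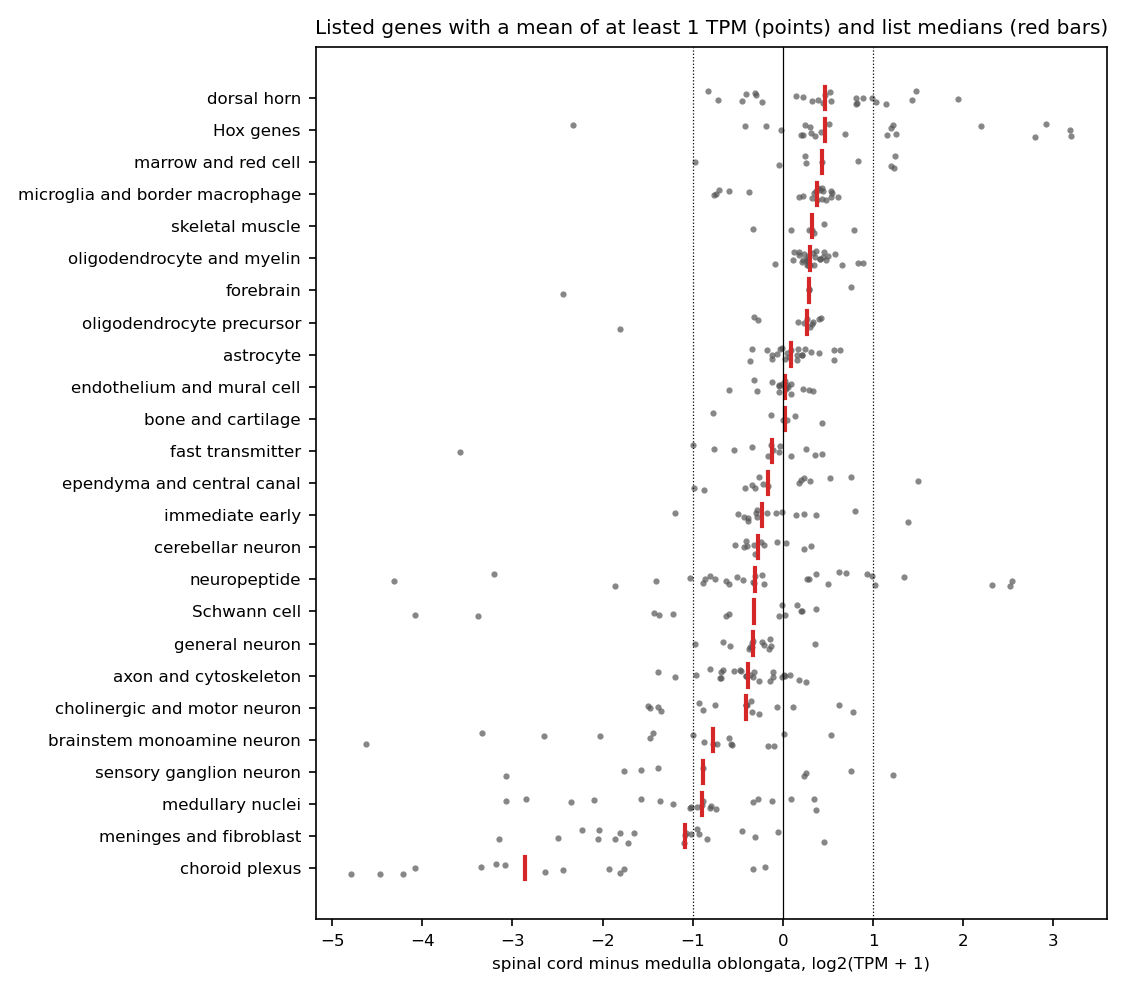
Each point is a measured gene of 1 of 25 lists (y axis) at its difference, spinal cord minus medulla oblongata in log2(TPM + 1) (x axis), with list medians as red bars and the 2-fold lines dotted. The dorsal horn and Hox lists have the highest medians, both 0.47, and the choroid plexus list the lowest, at -2.86.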

How the data were processed

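The authors deposited 2 gene tables for all libraries, expected counts and TPM, per the file headers. RSEM and Bowtie 0.12.8 are named per the submitters' processing notes. Neither the genome build nor the strand setting is stated in the labels or headers. The labels describe polyA-selected TruSeq libraries. From the deposited TPM, log2(TPM + 1) in spinal cord minus medulla oblongata was computed for genes with a mean of at least 1 TPM, and exact 95% binomial intervals of count ratios came from the rounded expected counts (scipy 1.17.1). edgeR 4.0.16 and DESeq2 1.42.0 gave scaling factors only. The code for the difference and the fold was tested on simulated data, and the interval code was not.

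Genes were named by rule: the 15 largest differences in each direction at 10 TPM or more, members of 6 lists of Hox, transmitter, cholinergic, dorsal horn, peptide and aminergic genes, and, of each other list, the 4 largest differences and 2 highest levels. The 20 largest differences in each direction with 50 counts, and some further genes, were added after the values were seen, as were the genes of the closing observations. The members, the 25 lists and the rules were chosen with earlier results of these data known. Of 18970 gene symbols 14498 matched RefSeq for this species, ignoring case. Some genes that these rules name are not reported here.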

Additional observations from a re-analysis of the deposited data

How the results depend on the processing

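With 1 library a side and no replicate, no test stands behind any value, and depth limits what genes of few counts can show. Genes higher and lower in spinal cord numbered 264 and 376 as reported. They were 111 and 151 with a pseudocount of 5 TPM. On counts per library total in place of TPM they were 97 and 215 with TMM factors and 97 and 218 with DESeq2 size factors. They were 122 and 190 at a mean of at least 5 TPM and 93 and 110 at 4-fold. With 50 counts or more in the higher library (added after the values were seen) they were 83 and 192. With a pseudocount of 0.1 TPM they were 375 and 526. At 4-fold 5 Hox genes were higher. The choroid plexus median was -3.35 with a pseudocount of 0.1 TPM, -1.94 with 5 TPM and -2.06 against the mean of medulla and pons. Against that mean the Hox median was 1.13, the neuropeptide median 0.099, the cerebellar neuron median -0.94 and the sensory ganglion median -0.33. The sensory ganglion median was -0.031 without a filter on low values and -1.38 at 5 TPM, where the marrow and red cell median was 1.23. The cause was not tested. Of 72 genes named in the text and past the fold, all kept their direction under 0.1 and 5 TPM pseudocounts, TMM and DESeq2 scaling, rescaled TPM and the pons average, except that Ttr and Hbb-bs are left out of the rescaled TPM by construction. With a pseudocount of 5 TPM 54 stayed past the fold, and Tac1, Tlx3, Skor2, Hoxa6, Hoxc6, Gad2, Htr1a, Nmb, Otx2, Pkd1l2, Pnmt, Prx, Camp, Egr3, Fosb, Bcl11b, Galr1 and Sall3 did not. Against the mean of medulla and pons 66 did, and Cartpt, Prph, Prx, Htr1a, Fosb and Pnmt did not. Rescaled TPM put Gad2 and Htr1a under it. No paired analysis was possible because each side has a single library.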

Other observations

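Several genes outside the lists differed between the 2 libraries. They were chosen after their values were seen, and each value is of 1 library. Of the 4 Ebf genes, transcription factors of developing and adult neurons, all had a difference above 0 and 3 passed the fold. Ebf2 stood at 48.8 TPM in spinal cord, 9.78 TPM in medulla and 9.24 TPM in pons, a count ratio of 4.93 (interval 4.06 to 6.02). Ebf1 stood at 132 TPM in spinal cord, 49.7 TPM in medulla and 26.2 TPM in pons. Ebf3 was 39.8 TPM in spinal cord and 15.3 TPM in medulla, and Ebf4, within the fold, was 6.74 and 6.14 TPM. Of other transcription factors, Bcl11b was 19.0 TPM in spinal cord and 7.57 TPM in medulla, and Sall3 was 31.4 and 14.2 TPM. Col5a2, a fibrillar collagen gene, was 93.1 TPM in spinal cord and 16.6 TPM in medulla, whereas the collagen genes of the meningeal list had lower values there.

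Some peptide and acetylcholine receptor genes were higher in the cord. Peptide receptor genes were not counted as a family, and some that are not named here passed the fold in favour of medulla. Qrfpr, the receptor of the peptide QRFP, was 29.8 TPM in spinal cord and 4.90 TPM in medulla, and Pth2r, a parathyroid hormone receptor family member, was 13.1 and 2.45 TPM. The galanin receptor gene Galr1 was 22.0 TPM in spinal cord and 8.56 TPM in medulla, while galanin itself, Gal, was 32.5 and 60.1 TPM. Of 5 muscarinic receptor genes Chrm4 (40.2 TPM in spinal cord, 15.6 TPM in medulla) and Chrm5 (18.2 and 4.04 TPM, on 53 and 12 counts) were higher, and 3 had values below those of medulla. Of 12 measured serotonin receptor genes 0 were higher and 2 lower, Htr5b and Htr1a. Htr2c, the most abundant of those looked at singly, was 341 TPM in spinal cord and 418 TPM in medulla.

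On the medullary side, Moxd1, a monooxygenase-like gene, stood at 17.2 TPM in spinal cord, 208 TPM in medulla and 12.4 TPM in pons. Ano2, a calcium-activated chloride channel gene, was 3.04 TPM in spinal cord and 30.5 TPM in medulla. Oca2, known for its part in pigmentation, was 0.715 TPM in spinal cord and 20.8 TPM in medulla. Cldn2, a tight junction gene, was 1.27 TPM in spinal cord and 24.4 TPM in medulla, and next highest in cerebellum at 8.95 TPM. Moxd1 and Oca2 were next highest in cerebellum too, at 111.6 and 7.39 TPM, whereas Ano2 had its lowest brain level there, at 0.334 TPM. The median of the choroid plexus list was also highest in medulla and next in cerebellum. The part of that tissue in the values of these genes was not tested.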
